A study of Mus musculus with 16 samples.

Results

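The 2 arrays labelled TAU were compared with the 3 arrays labelled old SIRT1F/F, 5 of the 16 arrays of the study, over every probe of the array platform. The arrays of each group were picked by their labels. The comparison itself was chosen with earlier results of these data known. Of 25697 probes, 16343 exceeded the background level on 2 or more of the 16 arrays and were tested. The study addressed how SIRT1 in microglia bears on ageing and on models of dementia. Each array measured RNA from brain cells that had passed a myelin-bead depletion and were then held on anti-CD11b beads. The TAU group (2 arrays) carries only the genotype TAU in the labels, with no age, no transgene and no promoter. The protocol that the groups share names SIRT1F/F and LysM-Cre/SIRT1F/F mice, so whether TAU mice carry the floxed Sirt1 allele is not stated there. The old SIRT1F/F group (3 arrays) carries the floxed allele without Cre. A parallel pair of groups, TAU/LysM (2 arrays) and old LysM-Cre/SIRT1F/F (3 arrays, called old LysM-Cre here), shares no array with the first pair. LysM-Cre is active in myeloid cells. The remaining arrays are young SIRT1F/F and young LysM-Cre/SIRT1F/F (3 each). All groups have a mixed BL6 and 129/Sv background. The labels do not say that replicates came from separate mice, so each p-value reflects only how far these arrays vary, which may be partly technical. Sex-linked RNA, given below, differed within old SIRT1F/F, so replicate 1 there was no technical copy of replicates 2 and 3. Age and TAU genotype cannot be told apart in this comparison, because the labels give the TAU mice no age.

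Microglia, the brain's own macrophages, survey the tissue and clear debris. In the undisturbed brain they express a homeostatic programme that includes the purinergic receptor P2ry12, the fractalkine receptor Cx3cr1, the membrane protein Tmem119 and the transcription factor Sall1. Near amyloid plaques, in ageing white matter and in mouse models that express mutant human tau, some microglia lower these genes and raise others that serve lipid handling, lysosomal breakdown and phagocytosis, among them Apoe, Itgax, Clec7a, Cst7 and Gpnmb. This second programme is known as that of disease-associated microglia. Tau itself is a microtubule-binding protein of neurons and oligodendrocytes, encoded by Mapt.

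Markers of the labelled cell type were detected throughout. All 19 homeostatic genes on the array were above background on each of the 5 arrays. Their summed level, given like all levels here on a log2 scale on which 1 unit is a factor of 2, was 18.66 and 18.70 in TAU and 18.78 to 18.89 in old SIRT1F/F. All 12 choroid plexus genes and all 12 border-associated macrophage genes on the array were also above background on these arrays. Their summed levels, over fewer probes, reached at most 16.06 and 15.68. Being above background thus does not by itself mark a cell type. The share of probes above background ran from 54.9% to 57.5% over the 16 arrays, and correlations between arrays of one group from 0.984 to 0.994. The TAU pair correlated at 0.993, the old SIRT1F/F pairs at 0.990 to 0.994, and TAU with old SIRT1F/F arrays at 0.979 to 0.986. No 2 arrays were identical. Old SIRT1F/F replicates 2 and 3 stood apart in Xist, the non-coding RNA of the inactive X chromosome. Xist measured 10.78 and 10.96 in TAU, and 11.01, 6.32 and 6.08 in old SIRT1F/F. The Y-linked gene Eif2s3y measured 9.78 and 9.58 in TAU, and 9.99, 11.39 and 11.47 in old SIRT1F/F. Both sex-linked RNAs were thus high on both TAU arrays and on old SIRT1F/F replicate 1. On old SIRT1F/F replicates 2 and 3 only Eif2s3y was high, so the groups differed in sex-linked RNA. Leaving out the 5 arrays of the study on which either gene was below a level of 7 kept 1 old SIRT1F/F array, and 29 probes were then called.

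Against old SIRT1F/F arrays, 652 of 16343 probes (3.99%) passed an adjusted p of 0.05 in TAU arrays by limma. Of these, 444 (2.72%) were higher in TAU and 208 (1.27%) lower. They stand for 362 genes higher and 182 genes lower, of 10985 tested genes. In the gene lists below, a gene counts if any of its probes passed. The shares set beside those counts are of probes, so the 2 units differ and genes with several probes pass more easily. A further filter on size left 212 probes higher and 58 lower by over 1 log2 unit. The share of higher probes among the calls was 68.1% after quantile normalization and 48.6% after median scaling, where 353 probes were higher and 373 lower. The median difference over all tested probes was -0.02 after quantile normalization and -0.12 after median scaling. Without TAU replicate 1 the calls fell to 147 and without TAU replicate 2 to 218. Without old SIRT1F/F replicate 1, 2 or 3 there were 418, 255 or 371 calls. At an unadjusted p under 0.05, 8.32% of tested probes were higher and 8.7% lower. On 2850 tested probes (17.4%) both TAU arrays lay above all 3 old SIRT1F/F arrays, and on 3414 (20.9%) both lay below.

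Genes of disease-associated microglia were higher in TAU. Of 26 tested genes of the list, 13 were called and all 13 were higher, against 2.72% of all tested probes. The median difference over its 36 tested probes was 0.64, against -0.02 over all tested probes, with a range of -0.19 to 2.65. Both TAU arrays lay above every old SIRT1F/F array on 27 of the 36 probes and below on 3. Over all tested probes these shares were 17.4% and 20.9%. The summed level of the list was 18.71 and 18.78 in TAU, and 18.40 to 18.50 in old SIRT1F/F. The 13 genes were Ank, Gpnmb, Igf1, Itgax, Clec7a, Cst7, Apoe, Lpl, Fabp5, Csf1, Axl, Cd63 and Ccl6. The count was 7 without either TAU array, 12, 11 or 10 without old SIRT1F/F replicate 1, 2 or 3, and 9 after median scaling. Without the arrays low in Xist or Eif2s3y it was 5.

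Gpnmb, a transmembrane glycoprotein of phagocytes with lipid-laden lysosomes, changed most in this list. Its brightest probe measured 12.48 and 13.002 in TAU, and 10.40, 9.80 and 10.09 in old SIRT1F/F. The groups did not overlap, and the difference was 2.65 ± 0.22 (SE, adjusted p = 2.58e-05). A second probe differed by 2.44 (adjusted p = 0.00402), while the third was not well above background in either group. In young SIRT1F/F arrays the brightest probe measured 8.71 to 8.998, below every old SIRT1F/F array.

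Itgax encodes CD11c, an integrin chain that pairs with the CD18 chain. It measured 8.94 and 8.88 in TAU, and 6.66, 7.08 and 6.88 in old SIRT1F/F, a difference of 2.03 ± 0.27 (adjusted p = 0.00102). Its old and young SIRT1F/F levels overlapped, with 6.62 to 7.10 in young arrays. Cst7, which encodes the cysteine protease inhibitor cystatin F, measured 10.97 and 11.44 in TAU, and 9.13, 8.71 and 9.93 in old SIRT1F/F. It differed by 1.95 ± 0.28 (adjusted p = 0.0023), and the highest old SIRT1F/F array stayed 1 unit below the lower TAU array.

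Growth factors were among the risen genes. Igf1, insulin-like growth factor 1, measured 10.59 and 10.81 in TAU, and 9.24, 8.88 and 9.27 in old SIRT1F/F (1.57 ± 0.16, adjusted p = 0.000142). Csf1, the ligand of the receptor on which microglia depend for survival, measured 11.75 and 12.12 in TAU, and 10.50, 10.67 and 10.67 in old SIRT1F/F (1.32 ± 0.25, adjusted p = 0.0109). Neither gene overlapped between the groups. Without TAU replicate 1 or TAU replicate 2, Csf1 was no longer called.

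The receptor Clec7a, also named Dectin, binds fungal glucans. It measured 13.12 and 13.52 in TAU, and 12.18, 12.04 and 12.28 in old SIRT1F/F, by 1.15 ± 0.16 (adjusted p = 0.00172). Its 2 other bright probes also rose, by 1.37 and 1.41, and a dim probe differed by 0.51 (adjusted p = 0.306). Ank, a membrane protein that exports pyrophosphate, had the smallest p of the list. It measured 11.93 and 11.87 in TAU, and 10.64, 10.49 and 10.58 in old SIRT1F/F (1.33 ± 0.10, adjusted p = 1.2e-05). These 2 genes, Gpnmb, Igf1, Itgax and Cst7 stayed called without any single array of the 5.

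Axl, a receptor tyrosine kinase that takes up apoptotic cells through bridging ligands, measured 13.65 and 13.93 in TAU, and 13.04, 12.79 and 12.69 in old SIRT1F/F (0.95 ± 0.19, adjusted p = 0.0148). Cd63, a tetraspanin of late endosomes, rose on 2 of 3 probes, by 0.77 and 0.46. The chemokine Ccl6 rose by 0.67 ± 0.15 (adjusted p = 0.0288). Axl, Cd63 and Ccl6 each lost the call without either TAU array and without old SIRT1F/F replicate 3. Axl and Cd63 also lost it without old SIRT1F/F replicate 2, and Ccl6 without old SIRT1F/F replicate 1.

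The other 13 tested genes of the list did not pass the test. Lilrb4a, an inhibitory immunoglobulin-like receptor, differed by 0.69 (adjusted p = 0.0752), and the tetraspanin Cd9 by 0.33 (adjusted p = 0.104). Trem2, the lipid-sensing receptor upstream of this programme, measured 14.72 and 14.75 in TAU, and 14.94, 14.96 and 14.87 in old SIRT1F/F, a difference of -0.19 ± 0.09 (adjusted p = 0.317). Tyrobp, the adaptor through which Trem2 signals, differed by 0.01 (adjusted p = 0.978). The lysosomal proteases Ctsd, Ctsb and Ctsl differed by 0.35, 0.12 and -0.17. Neither the receptor nor its adaptor passed the test, and both were bright on all 5 arrays.

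**Figure D1:**
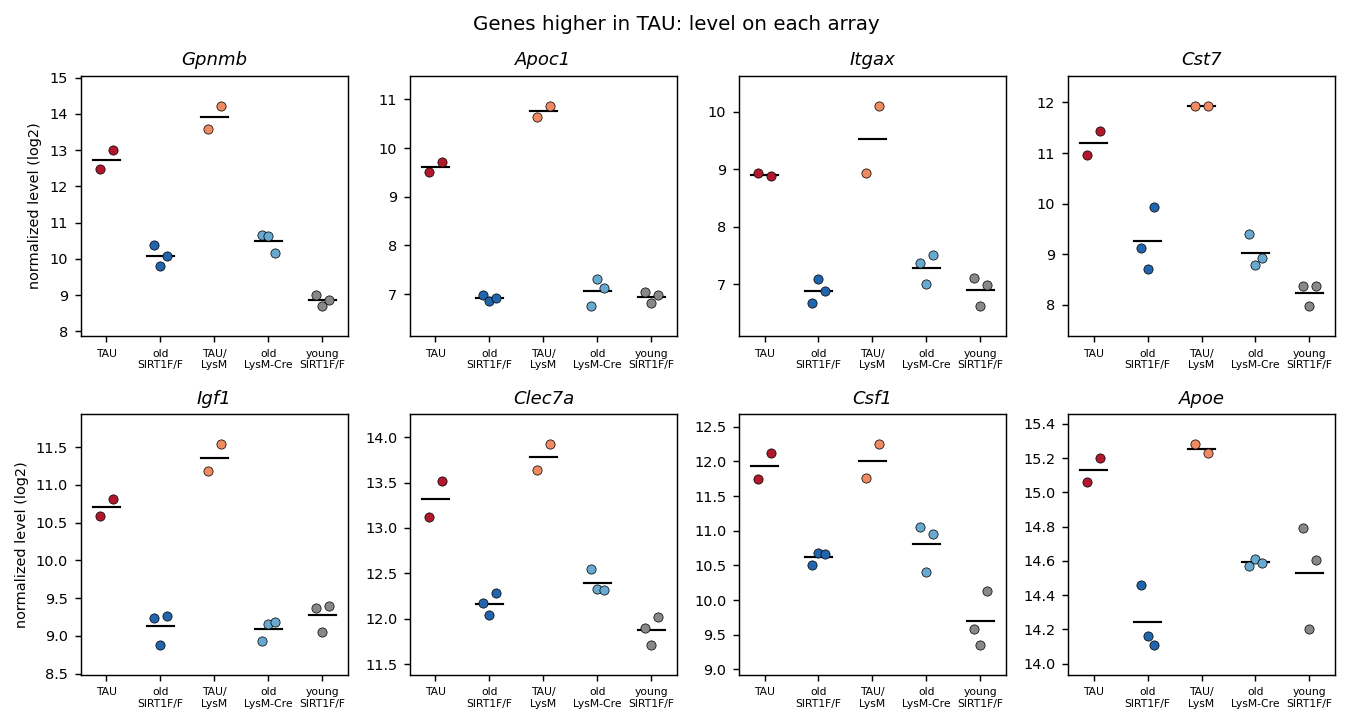
Normalized log2 level of 8 genes on each array, by group, with the group mean as a bar. Each point is 1 array, and the probe of smallest p is shown for each gene. In all 8 genes both TAU arrays lie above the 3 old SIRT1F/F arrays, and both TAU/LysM arrays above the 3 old LysM-Cre arrays.

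Lipid carriers and lipid enzymes contributed large differences. Of 18 tested genes of cholesterol and lipid handling, 4 were higher and none lower, against 2.72% higher and 1.27% lower of all tested probes. The list's median difference was 0.17. Apoc1, a small apolipoprotein that also inhibits lipid transfer, had the smallest p of these. It measured 9.50 and 9.72 in TAU, and 6.98, 6.85 and 6.92 in old SIRT1F/F (2.69 ± 0.16, adjusted p = 1.8e-06). A brighter Apoc1 probe measured 10.51 and 10.77 in TAU, and 7.54, 7.43 and 7.57 in old SIRT1F/F (3.13 ± 0.21, adjusted p = 3.54e-06). Young SIRT1F/F arrays, at 6.81 to 7.05 on the first probe, overlapped old SIRT1F/F arrays.

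Apoc4, encoded beside Apoc1 and Apoe in one apolipoprotein cluster, measured 8.51 and 8.64 in TAU, and 6.35, 6.43 and 5.89 in old SIRT1F/F. It differed by 2.35 ± 0.26 (adjusted p = 0.000315), and 2 of the 3 old SIRT1F/F arrays were above background. Apoe, the main lipid carrier of the brain, was already among the brighter genes. It measured 15.06 and 15.20 in TAU, and 14.46, 14.16 and 14.11 in old SIRT1F/F, a smaller difference of 0.89 ± 0.16 (adjusted p = 0.00708). Without TAU replicate 2 or after median scaling, Apoe was no longer called. Lpl, the lipase that frees fatty acids from lipoproteins, measured 13.90 and 13.75 in TAU, and 12.94, 12.18 and 12.51 in old SIRT1F/F (1.28 ± 0.23, adjusted p = 0.0077). It lost the call without TAU replicate 1.

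Fabp5, a fatty acid carrier of the cytosol, measured 7.43 and 7.55 in TAU, and 6.75, 5.60 and 6.32 in old SIRT1F/F (1.27 ± 0.24, adjusted p = 0.0108), with 1 old SIRT1F/F array above background. Scd1, the desaturase that makes monounsaturated fatty acids, measured 10.87 and 10.80 in TAU, and 10.04, 9.88 and 9.63 in old SIRT1F/F (0.98 ± 0.23, adjusted p = 0.0334). Both lost the call without either TAU array, and Scd1 also without old SIRT1F/F replicate 2 or 3. Scd1 is also expressed by oligodendrocytes.

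The promoters of Apoc1, Apoc4 and the risen genes of the disease-associated list were read from RefSeq (GRCm38.p6). These genes were picked because they were called higher, so their shared direction is the rule of choice. The uncalled genes of the list were not read. Of these 15 genes, 12 have a promoter in the table used and Apoc1, Fabp5 and Lpl do not. Each entry is a window from 250 bases before to 50 after the start. The 4 with the largest rises among them are shown 5′ to 3′, each as a 300-base window. Capitals mark the AP-1 motif TGACTCA on either strand. The windows are chr7:19681411-19681710 on the minus strand (Apoc4), chr2:150570165-150570464 on the plus strand (Cst7), chr6:49036268-49036567 on the plus strand (Gpnmb) and chr7:128129300-128129599 on the plus strand (Itgax).
Apoc4: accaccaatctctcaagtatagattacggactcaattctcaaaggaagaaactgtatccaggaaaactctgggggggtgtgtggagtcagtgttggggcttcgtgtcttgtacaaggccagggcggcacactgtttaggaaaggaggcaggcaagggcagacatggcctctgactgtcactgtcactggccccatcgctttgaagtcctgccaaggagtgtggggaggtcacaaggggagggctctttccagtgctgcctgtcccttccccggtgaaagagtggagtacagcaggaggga
Cst7: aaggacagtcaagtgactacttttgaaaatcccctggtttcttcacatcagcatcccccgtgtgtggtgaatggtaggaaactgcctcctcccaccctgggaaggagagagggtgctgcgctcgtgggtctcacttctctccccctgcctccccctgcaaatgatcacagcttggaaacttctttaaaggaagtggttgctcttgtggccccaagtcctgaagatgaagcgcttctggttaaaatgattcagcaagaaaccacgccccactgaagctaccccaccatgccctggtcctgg
Gpnmb: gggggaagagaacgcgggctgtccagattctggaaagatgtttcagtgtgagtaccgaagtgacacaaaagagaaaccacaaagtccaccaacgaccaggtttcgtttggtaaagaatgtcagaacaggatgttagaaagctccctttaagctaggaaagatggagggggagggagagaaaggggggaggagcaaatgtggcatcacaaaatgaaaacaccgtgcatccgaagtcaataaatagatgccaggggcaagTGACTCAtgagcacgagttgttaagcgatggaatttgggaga
Itgax: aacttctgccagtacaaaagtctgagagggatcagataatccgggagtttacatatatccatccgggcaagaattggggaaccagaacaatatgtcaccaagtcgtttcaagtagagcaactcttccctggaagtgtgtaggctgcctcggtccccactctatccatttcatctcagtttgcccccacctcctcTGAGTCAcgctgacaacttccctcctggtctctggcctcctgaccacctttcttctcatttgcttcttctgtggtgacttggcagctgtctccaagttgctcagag
The AP-1 motif, the letters read by Fos and Jun dimers, was found in 2 of the 12 genes, Gpnmb and Itgax, and in 5.2% of 32851 promoters of the same length. GAGGAA, the core read by the myeloid factor PU.1, was found in 6 of the 12 genes and in 28.3% of all promoters. None of the 4 windows shown holds it. The E-box letters CACGTG or CATGTG were in 0 of the 12 genes and in 20.4% of all promoters. All 3 were searched on both strands, and neither AP-1 match shown overlaps a match of the others. A match describes letters only, and no match says only that these letters are not in this window.

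Homeostatic genes moved less and in the other direction. Of 19 tested genes, 3 were called and all 3 were lower, against 1.27% of all tested probes. The median difference over 30 probes was -0.21, with a range of -0.78 to 0.29, and 24 of 30 probes had a negative difference. Both TAU arrays lay below every old SIRT1F/F array on 14 of the 30 probes, against 20.9% of all tested probes. The called genes numbered 0 without TAU replicate 1 and 1 without TAU replicate 2. They numbered 2, 1 and 3 without old SIRT1F/F replicate 1, 2 and 3, and 0 without the arrays low in Xist or Eif2s3y.

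Tmem119 measured 13.77 and 13.98 in TAU, and 14.45, 14.46 and 14.47 in old SIRT1F/F, a difference of -0.59 ± 0.10 (adjusted p = 0.00667). The old SIRT1F/F arrays lay within a narrow band that neither TAU array reached. Sall1, the transcription factor that keeps microglial identity, fell by 0.66 on one probe and by 0.52 on the other (adjusted p = 0.0129 and 0.0345). On the first probe it measured 10.45 and 10.53 in TAU, and 11.07, 11.19 and 11.19 in old SIRT1F/F. Siglech, a sialic acid-binding lectin, fell by 0.40 on 1 of 3 probes (adjusted p = 0.0192). That probe measured 13.76 and 13.82 in TAU, and 14.20, 14.17 and 14.19 in old SIRT1F/F.

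The classical receptors of the programme did not pass the test. P2ry12 measured 13.73 and 13.60 in TAU, and 13.66, 13.66 and 14.14 in old SIRT1F/F, a difference of -0.15 ± 0.16 (adjusted p = 0.697). Its groups overlapped, with old SIRT1F/F replicate 3 above the rest. Cx3cr1 measured 14.81 and 14.80 in TAU, and 14.91, 15.03 and 15.24 in old SIRT1F/F (-0.25 ± 0.11, adjusted p = 0.261). Itgam, which encodes CD11b, the antigen used for the bead selection, measured 9.48 and 9.69 in TAU, and 10.46, 10.43 and 10.31 in old SIRT1F/F. Its groups did not overlap, and the difference of -0.81 ± 0.33 had an adjusted p of 0.217. In the fit on the 5 compared arrays alone its adjusted p was 0.0135.

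**Figure D2:**
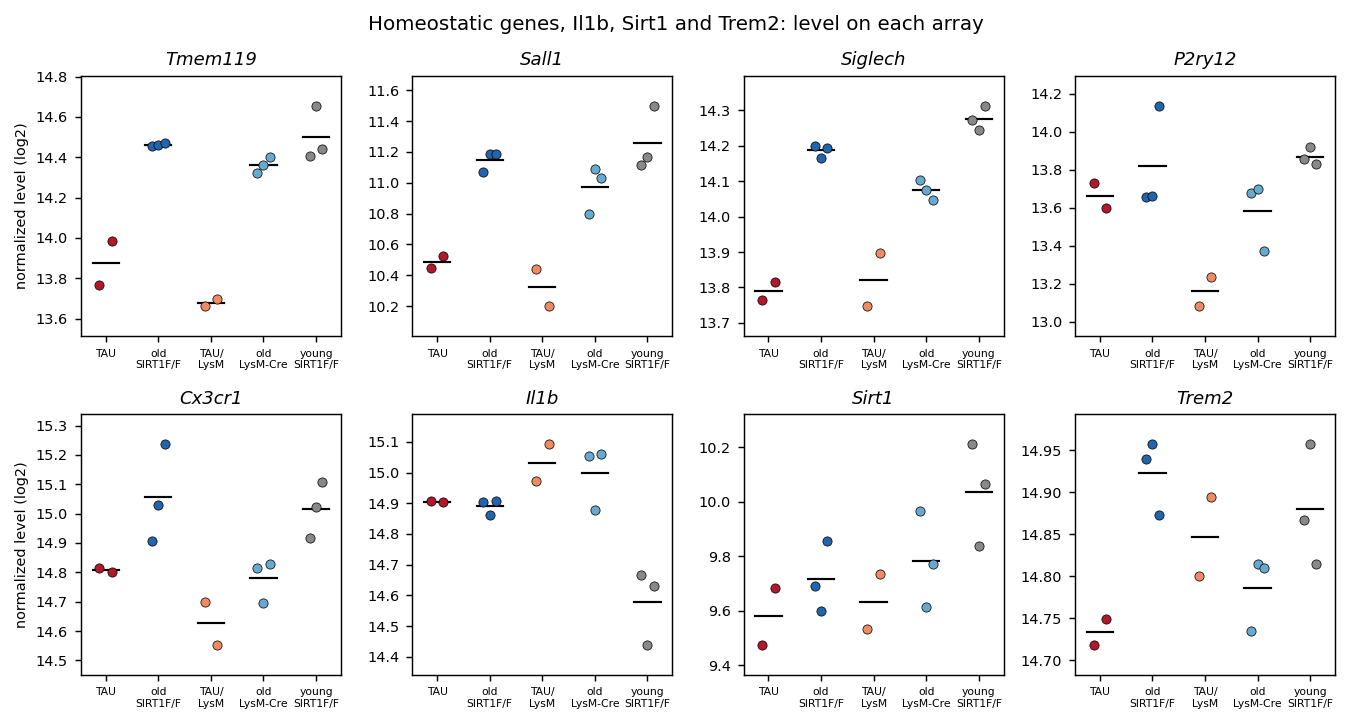
Normalized log2 level of 8 genes on each array, by group, with the group mean as a bar. Tmem119, Sall1 and Siglech lie lower on both TAU arrays than on the 3 old SIRT1F/F arrays, P2ry12 overlaps between these groups, and Il1b and Sirt1 differ by 0.01 and -0.14 between them.

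Sirt1 and the IL-1 genes did not pass the test. Sirt1, the deacetylase, measured 9.48 and 9.68 in TAU, and 9.69, 9.60 and 9.86 in old SIRT1F/F (-0.14 ± 0.14, adjusted p = 0.696). Il1b, the cytokine IL-1 beta, measured 14.91 and 14.90 in TAU, and 14.90, 14.86 and 14.91 in old SIRT1F/F (0.01 ± 0.10, adjusted p = 0.971). Its level was high and nearly the same on all 5 arrays, against 14.44 to 14.67 in young SIRT1F/F arrays. Of 17 tested genes of the IL-1 family and inflammasome, limma called 0, with 1 higher and 3 lower at an unadjusted p under 0.05, against 8.32% higher and 8.7% lower of all tested probes. Il1r2, the decoy receptor for IL-1, differed by -0.84 ± 0.27 (adjusted p = 0.114). Of 13 sirtuins and NAD enzymes limma called 0, with 1 higher and 0 lower at an unadjusted p under 0.05. Nampt, the rate-limiting enzyme of the NAD salvage path, differed by 0.53 on one probe (adjusted p = 0.0989) and 0.11 on the other. Of the near-identical lysozyme genes, Lyz1 differed by at most 0.10 and Lyz2 by at most 0.39 over 3 probes each, with no call.

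Most other lists of immune genes held no call by limma. None was called among 19 interferon-stimulated genes (median 0.16, 1 higher and 1 lower at an unadjusted p under 0.05), 14 genes of MHC class I presentation (median -0.06) or 10 of MHC class II presentation (median 0.06). The last 2 lists also had 0 genes at an unadjusted p under 0.05. The 14 NF-kB subunits and feedback genes had a median of -0.05 and 0 genes under that p. Among 12 complement and Fc receptor genes (median -0.10) 0 were called and 3 were lower at an unadjusted p under 0.05, against 8.7% of all tested probes. Of 23 cytokines and chemokines, Ccl6 was called (4.35%, near the 3.99% of all tested probes), and Ccl9 differed by 0.55 (adjusted p = 0.0794). Of 13 phagocytic and scavenger receptors, Axl and Mfge8 were higher, against 2.72% of all tested probes. Mfge8, which bridges dying cells to phagocytes, measured 13.07 and 12.75 in TAU, and 12.30, 12.40 and 12.27 in old SIRT1F/F (0.59 ± 0.14, adjusted p = 0.0341). It lost the call without any one of the 5 arrays.

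Among cell-state genes, a few metabolic and stress genes rose. Of 16 glycolysis genes 2 were higher, against 2.72% of all tested probes. Tpi1, triosephosphate isomerase, measured 12.95 and 12.84 in TAU, and 12.36, 12.40 and 12.30 in old SIRT1F/F (0.54 ± 0.09, adjusted p = 0.00497). Ldha, lactate dehydrogenase A, measured 13.18 and 13.18 in TAU, and 12.85, 12.71 and 12.89 in old SIRT1F/F (0.36 ± 0.09, adjusted p = 0.0432). Tpi1 lost the call without TAU replicate 1 or after median scaling, and Ldha without any one array. Srxn1, which restores oxidized peroxiredoxins, was the one call of 17 antioxidant and FOXO targets (5.88%, against 3.99% of all tested probes). It measured 7.82 and 7.97 in TAU, and 7.26, 7.26 and 7.05 in old SIRT1F/F (0.71 ± 0.13, adjusted p = 0.00796), and lost the call without either TAU array.

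The cell cycle inhibitors Cdkn2b and Cdkn1a were the 2 calls of 16 p53 targets and senescence genes, against 3.99% of all tested probes. Cdkn2b measured 8.28 and 7.91 in TAU, and 7.34, 7.39 and 7.01 in old SIRT1F/F (0.85 ± 0.17, adjusted p = 0.0142). It lost the call without TAU replicate 1 or old SIRT1F/F replicate 3. Cdkn1a rose on 1 of 3 probes, by 0.59 ± 0.14 (adjusted p = 0.0392), with 0.39 and 0.37 on the other 2 and no call without any one array. Limma called 0 genes of lysosome and autophagy (20 tested, median 0.16, 3 higher at an unadjusted p under 0.05, against 8.32% of all tested probes). It also called 0 of oxidative phosphorylation (21, median 0.13, 1 higher), cytosolic ribosomal proteins (13, median 0.04, 0 under that p) and the cell cycle (14, median 0.07, 2 higher and 1 lower). The same held for the circadian clock (14, median -0.30, 1 higher and 2 lower), immediate early genes (17, median 0.04, 3 higher) and heat shock proteins (11, median 0.04, 0 under that p).

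**Figure D3:**
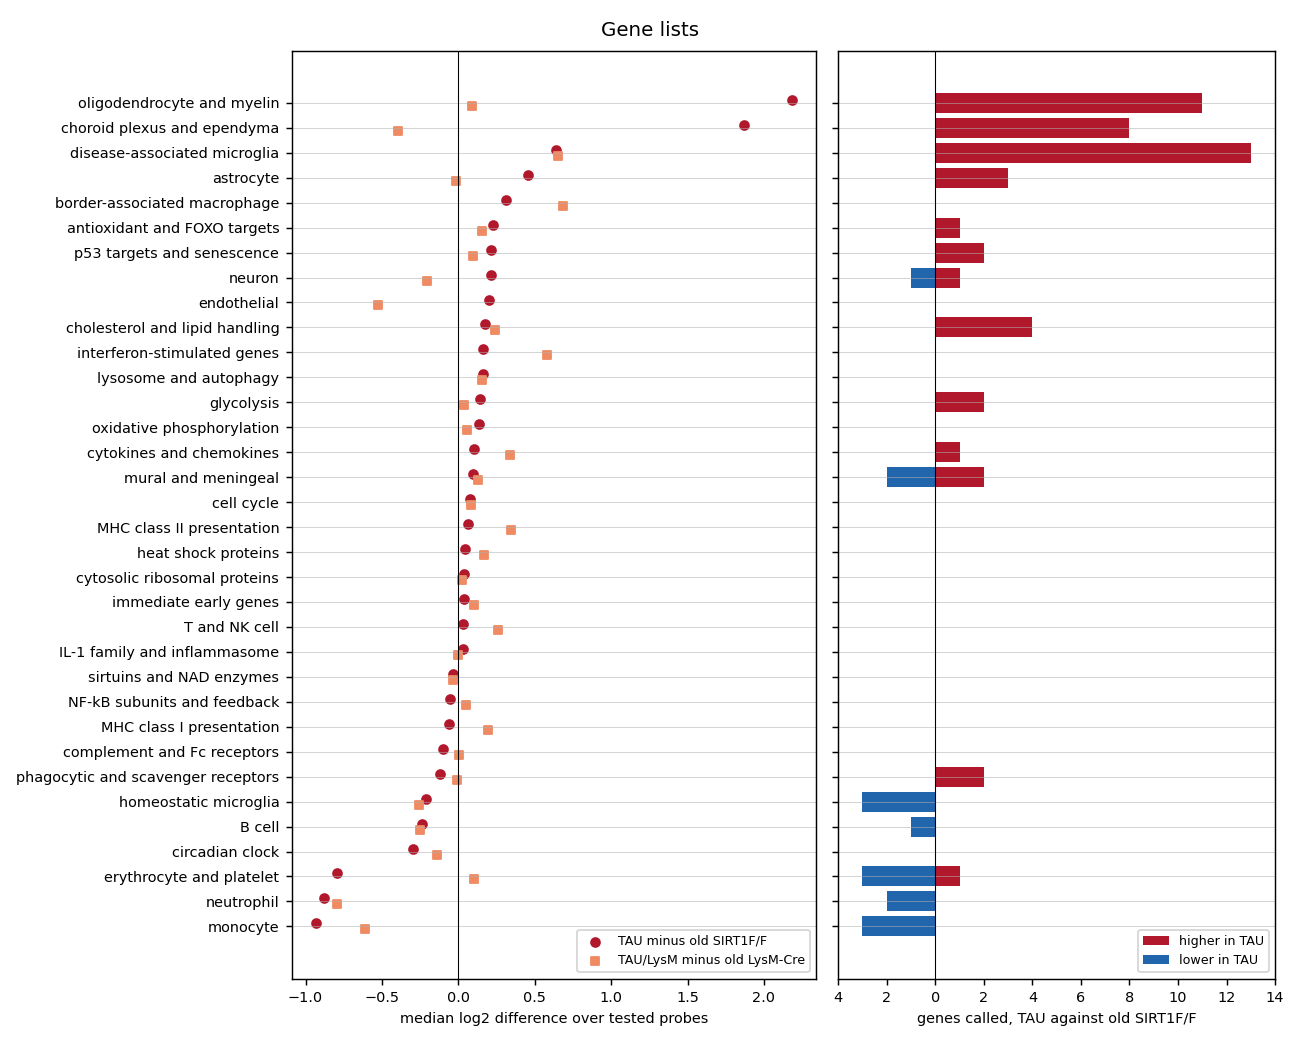
Left, median log2 difference over the tested probes of each gene list, for TAU minus old SIRT1F/F (circles) and TAU/LysM minus old LysM-Cre (squares). Right, number of genes called in TAU against old SIRT1F/F, higher to the right and lower to the left. The disease-associated list has nearly the same median in both comparisons, 0.64 and 0.65, while the oligodendrocyte and choroid plexus lists have high medians in the first only.

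Genes of oligodendrocytes, the cells that make myelin, had the largest median difference of the 34 gene lists. Of 16 tested genes 11 were higher and 0 lower, against 2.72% higher and 1.27% lower of all tested probes. The median difference over 22 probes was 2.19. The summed level of the list was 15.49 and 15.87 in TAU, and 13.24 to 13.66 in old SIRT1F/F. Of 18 genes on the array, 15 and 16 were above background on the TAU arrays, and 10 to 12 on old SIRT1F/F arrays. In bulk arrays, more cells of a type and more of its RNA per cell cannot be told apart. The count was 10 or 11 without any one array and 8 without the arrays low in Xist or Eif2s3y.

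Mbp, the basic protein of compact myelin, measured 11.50 and 11.99 in TAU, and 7.89, 7.16 and 7.70 in old SIRT1F/F (4.16 ± 0.33, adjusted p = 1.34e-05). A brighter Mbp probe rose by 3.92, while another differed by -0.08 (adjusted p = 0.809). Bcas1, which marks newly myelinating oligodendrocytes, measured 12.82 and 13.28 in TAU, and 9.44, 7.56 and 8.88 in old SIRT1F/F (4.42 ± 0.67, adjusted p = 0.00284). Its old SIRT1F/F arrays spread over nearly 2 units, and young SIRT1F/F arrays over 8.22 to 10.61. Olig1, a transcription factor of the lineage, measured 10.42 and 10.64 in TAU, and 8.10, 7.68 and 8.30 in old SIRT1F/F (2.50 ± 0.20, adjusted p = 1.97e-05). Plekhb1 and Prr18, outside the list, were also among the 12 largest rises, by 3.09 ± 0.38 and 2.75 ± 0.24 (adjusted p = 0.000574 and 2.79e-05).

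Other myelin genes were not above background in old SIRT1F/F, so only bounds can be given. Fa2h, which makes the hydroxylated fatty acids of myelin lipids, was at least 3.70-fold higher in TAU (adjusted p = 3.54e-06). Mog, a surface protein of myelin, was at least 4.50-fold higher on a probe with no old SIRT1F/F array above background (adjusted p = 2.87e-05). Mobp was at least 11.9-fold higher on its brightest probe (adjusted p = 8.3e-05) and Ugt8a, which makes galactocerebroside, at least 3.14-fold (adjusted p = 0.000128). A bound sets the TAU mean against the higher of the background level and the dim probe's own signal on each old array. Opalin rose by 2.44, Omg by 2.18, Car2 by 2.19 and Mag by 0.61. Mag lost the call without TAU replicate 1, TAU replicate 2 or old SIRT1F/F replicate 2. The precursor markers Gpr17, Pdgfra and Cspg4 differed by -0.31, -0.08 and 0.24 and did not pass the test.

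Genes of the choroid plexus, the epithelium that secretes cerebrospinal fluid, formed the other large group. Of 12 tested genes 8 were higher and 0 lower, against 2.72% higher and 1.27% lower of all tested probes. The list's median difference was 1.87. The summed level was 15.86 and 16.06 in TAU, and 15.36 to 15.42 in old SIRT1F/F. TAU replicate 1 was the higher of the pair in each of the 8. Kcne2, a potassium channel subunit, measured 11.55 and 10.80 in TAU, and 9.03, 9.15 and 9.07 in old SIRT1F/F (2.10 ± 0.39, adjusted p = 0.00976). Kl, which encodes klotho, measured 12.15 and 11.59 in TAU, and 10.07, 9.72 and 9.91 in old SIRT1F/F (1.97 ± 0.38, adjusted p = 0.0118). Folr1, the folate receptor, rose by 1.89 and 2.03 on its 2 probes. Clic6, Calml4, Otx2, Igfbp2 and Sostdc1 rose by 1.94, 1.98, 1.91, 1.85 and 1.80. Ttr, the transthyretin that this epithelium makes in the largest amount, differed by 0.16 (adjusted p = 0.553). Without TAU replicate 1 a single gene of this list was called, and 5 without old SIRT1F/F replicate 2. Without the arrays low in Xist or Eif2s3y, 0 genes of this list were called.

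Astrocyte genes moved less. Gfap, Ntsr2 and Slc1a2 of 13 tested genes were higher and 0 lower, against 2.72% higher and 1.27% lower of all tested probes. Gfap, the intermediate filament of astrocytes, was not above background in old SIRT1F/F and at least 1.42-fold higher in TAU (adjusted p = 0.0211). Ntsr2, a neurotensin receptor, measured 7.75 and 7.88 in TAU, and 7.13, 6.68 and 7.35 in old SIRT1F/F (0.76 ± 0.18, adjusted p = 0.0307). Slc1a2, a glutamate transporter, was at least 1.03-fold higher (adjusted p = 0.0451). The 3 calls became 0 without TAU replicate 1, TAU replicate 2, old SIRT1F/F replicate 2 or the arrays low in Xist or Eif2s3y. The summed level of the list overlapped, with 14.12 and 14.32 in TAU and 14.03 to 14.93 in old SIRT1F/F.

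Mapt, which encodes tau and counts here among 11 tested neuronal genes, rose on 1 of its 3 probes. That probe measured 7.66 and 8.24 in TAU, and 6.38, 6.34 and 6.52 in old SIRT1F/F (1.54 ± 0.22, adjusted p = 0.0023). The other 2 probes differed by 0.69 and 0.23 (adjusted p = 0.0807 and 0.696). These probes are annotated to mouse Mapt, and the labels do not give the transgene, so these values do not check the TAU label. Snhg11, a neuronal non-coding RNA host gene, fell by 0.55 ± 0.13 (adjusted p = 0.033). Mapt and Snhg11 were the 2 calls of the 11 genes. Of all tested probes, 2.72% were called higher and 1.27% lower. The median difference of the neuronal list was 0.21. Map2, a dendritic microtubule protein, differed by 0.68 (adjusted p = 0.0545). The summed neuronal level was 11.34 and 11.58 in TAU, and 11.18 to 11.31 in old SIRT1F/F, with 11 of 19 genes above background on each of the 5 arrays.

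Vascular genes split. Limma called 0 of 13 endothelial genes, none of them at an unadjusted p under 0.05. Of 15 mural and meningeal genes, Rgs5 and Vtn were higher and Igfbp6 and Slc47a1 lower. Of all tested probes, 2.72% were higher and 1.27% lower. The list's median difference over 25 probes was 0.10, with 15 probes positive and 10 negative. Its summed level overlapped, with 14.20 and 14.67 in TAU and 14.11 to 14.37 in old SIRT1F/F. Col1a1, Col1a2, Col3a1, Dcn, Lum and Ogn of the same list were not called. Rgs5 and Vtn are pericyte genes and rose by 1.60 ± 0.37 and 1.38 ± 0.33 (adjusted p = 0.0301 and 0.0338). Both lost the call without either TAU array or old SIRT1F/F replicate 2, Rgs5 also without old SIRT1F/F replicate 1 and Vtn without replicate 3. Igfbp6 and Slc47a1 are expressed in meningeal fibroblasts and fell by 1.46 ± 0.23 and 1.43 ± 0.25 (adjusted p = 0.00365 and 0.00675). Igfbp6 measured 6.76 and 6.46 in TAU, and 8.26, 8.12 and 7.84 in old SIRT1F/F. Both lost the call without TAU replicate 2.

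Of the lists of blood myeloid cells, a few genes were lower in TAU. The monocyte list had a median difference of -0.93 over 14 probes, and the neutrophil list -0.88 over 26 probes. Of 9 tested monocyte genes 3 were lower and 0 higher, and of 17 neutrophil genes 2 were lower and 0 higher. Of all tested probes, 1.27% were called lower and 2.72% higher. At an unadjusted p under 0.05, 7 of the 9 and 14 of the 17 were lower, against 8.7% of all tested probes. The summed monocyte level was 14.24 and 14.72 in TAU, and 14.97 to 15.42 in old SIRT1F/F. The summed neutrophil level was 16.73 and 17.05 in TAU, and 17.26 to 17.64 in old SIRT1F/F. Neither sum overlapped between the groups. The sums of some lists without a call did not overlap either, among them the IL-1 family, cytosolic ribosomal proteins and the cell cycle. Those of MHC class II presentation and immediate early genes, also without a call, did overlap. A sum without overlap thus does not by itself mark a list as changed.

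F10, coagulation factor X, was above background on all 3 old SIRT1F/F arrays and on no TAU array, a TAU level at least 1.37-fold lower (adjusted p = 0.0298). Plac8, which marks inflammatory monocytes, measured 9.86 and 10.36 in TAU, and 11.35, 11.54 and 11.18 in old SIRT1F/F (-1.25 ± 0.31, adjusted p = 0.0401). S100a6, a calcium-binding protein, fell by 0.80 ± 0.21 (adjusted p = 0.0463). Cxcr2, the chemokine receptor that calls in neutrophils, measured 7.35 and 7.73 in TAU, and 8.75, 9.22 and 8.67 in old SIRT1F/F (-1.34 ± 0.34, adjusted p = 0.0458). Padi4, which citrullinates histones in neutrophils, was at least 1.50-fold lower (adjusted p = 0.0233). These 5 calls were fragile. Without TAU replicate 1 or old SIRT1F/F replicate 2, 0 genes of either list were called, and without old SIRT1F/F replicate 1, 0 neutrophil genes. Without the arrays low in Xist or Eif2s3y, 0 genes of either list were called. The fit on the compared arrays alone called 5 monocyte and 6 neutrophil genes lower, and 262 of all 16343 tested probes lower.

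Of 9 tested red cell and platelet genes 3 were lower and 1 higher, against 1.27% lower and 2.72% higher of all tested probes. Hbb-b2, a beta globin, measured 5.92 and 6.09 in TAU, and 7.02, 8.17 and 8.04 in old SIRT1F/F, at least 2.70-fold lower in TAU (adjusted p = 0.00514). Globin genes are near-identical copies, so this probe may read more than one of them. Gp9, a subunit of the platelet von Willebrand factor receptor, measured 9.80 and 9.76 in TAU, and 10.83, 10.90 and 11.05 in old SIRT1F/F (-1.15 ± 0.18, adjusted p = 0.00373). The platelet chemokine Ppbp was at least 1.14-fold lower (adjusted p = 0.0414). The higher gene was Car2, which oligodendrocytes also express. Ly6d was the one call of 8 tested B cell genes (12.5%, against 3.99% of all tested probes). It was at least 1.37-fold lower on 1 of 2 probes (adjusted p = 0.00231). Cd22 of the same list went the other way, by 0.75 (adjusted p = 0.0532). Limma called 0 of 8 T and NK cell genes and 0 of 12 border-associated macrophage genes. At an unadjusted p under 0.05, 2 genes of the former were lower, against 8.7% of all tested probes. At the same p, 3 genes of the latter were higher, against 8.32% of all tested probes. The border-associated list had a median difference of 0.31 and a summed level of 15.53 and 15.68 in TAU, against 15.27 to 15.42 in old SIRT1F/F.

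**Figure D4:**
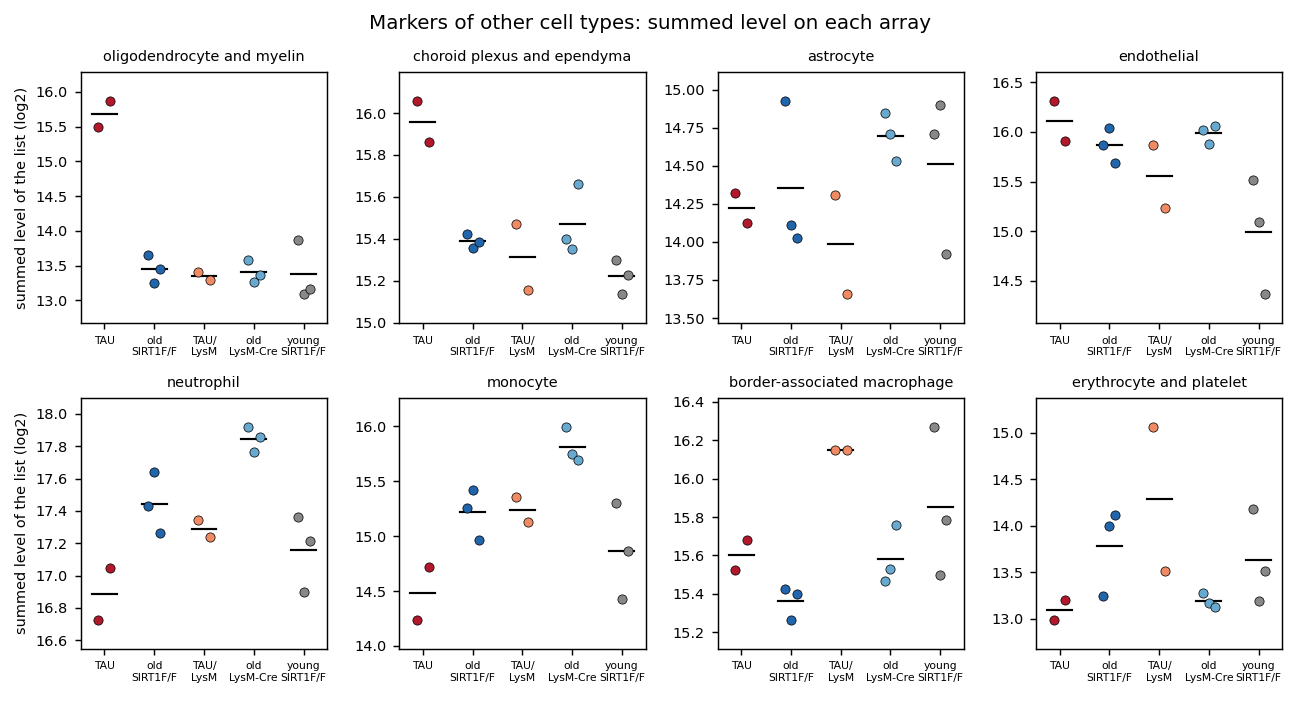
Summed log2 level of the markers of 8 other cell types on each array, with the group mean as a bar. TAU arrays are at 15.49 and 15.87 for oligodendrocyte genes, above every other array shown, and at 14.24 and 14.72 for monocyte genes, below all 3 old SIRT1F/F arrays.

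The largest falls among single genes were led by Lrrc57, a leucine-rich repeat protein. Lrrc57 measured 4.94 and 5.10 in TAU, and 9.33, 9.88 and 9.43 in old SIRT1F/F. It was below background in TAU and at least 9.41-fold lower (adjusted p = 0.0304). Spint1, a serine protease inhibitor of epithelia, measured 6.06 and 5.56 in TAU, and 8.18, 8.34 and 8.28 in old SIRT1F/F, at least 3.88-fold lower (adjusted p = 0.0307). Both genes also split arrays of one group. Lrrc57 measured 5.20, 8.996 and 5.85, and Spint1 5.96, 7.83 and 5.96, on young SIRT1F/F arrays. A level above 7 was reached by both genes on the same 8 of 16 arrays and by 0 arrays for one gene alone. The genes lie on one chromosome in RefSeq (GRCm38.p6) with 31 protein-coding genes between them. Of 28 tested probes of these, 1 was called, for Ehd4, which fell by 0.44. Lrrc57 and Spint1 both lost the call without any one of the 5 arrays.

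Further large falls were in Prkag2, a regulatory subunit of AMP-activated kinase, and Serpinb2, a plasminogen activator inhibitor of macrophages. Prkag2 measured 6.07 and 5.93 in TAU, and 7.65, 7.85 and 8.10 in old SIRT1F/F, at least 2.94-fold lower (adjusted p = 0.0162). Serpinb2 was at least 2.10-fold lower (adjusted p = 0.0372). Several of the others are known from granulocytes. Nfe2, a transcription factor of megakaryocytes and red cell precursors that neutrophils also express, fell by 1.57 ± 0.34 (adjusted p = 0.0213). Slpi, a protease inhibitor of neutrophils and epithelia, fell by 1.48 ± 0.39 (adjusted p = 0.0496). Ear6, an eosinophil-type ribonuclease with near-identical family members, measured 9.81 and 9.48 in TAU, and 11.37, 11.82 and 10.70 in old SIRT1F/F (-1.65 ± 0.42, adjusted p = 0.0457). Mrgpra2b fell by 1.54 on 1 of 2 probes, 4933427D14Rik by 1.84 and AA467197 by 1.48 (adjusted p = 0.0258, 0.00762 and 0.0107). Each of the genes in this paragraph lost the call without at least 1 of the 5 arrays, with TAU replicate 1 among those arrays for every one of them.

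The parallel comparison of TAU/LysM with old LysM-Cre arrays asked whether the same differences appear in arrays that share none with the first. There 370 probes (2.26%) were called, 242 higher (1.48%) and 128 lower (0.783%). Both TAU/LysM arrays lay above all old LysM-Cre arrays on 16.1% of tested probes and below on 15.9%. Of the 444 probes higher in TAU, 65.1% had a positive difference in TAU/LysM and 23.6% were called higher. Of the 208 lower in TAU, 90.9% were negative in TAU/LysM and 25% were called lower. Over all tested probes, 63.9% had the same sign in both comparisons and 2.18% were called in TAU/LysM in the direction of their TAU difference. The 157 probes called in both comparisons, 24.1% of the TAU calls and 42.4% of the TAU/LysM calls, comprised 105 higher in both and 52 lower in both.

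The disease-associated genes were also higher in TAU/LysM. Of 26 tested genes 15 were higher and 0 lower, against 1.48% higher and 0.783% lower of all tested probes. The 15 were the 13 called in TAU with Cd9 and Lilrb4a, and the median was 0.65. Gpnmb measured 13.60 and 14.22 in TAU/LysM, and 10.66, 10.63 and 10.16 in old LysM-Cre, a difference of 3.42. Apoc1 differed by 3.69 on its first probe, Igf1 by 2.27, Itgax by 2.24, Cst7 by 2.90, Clec7a by 1.38 and Ank by 1.38. Of 19 homeostatic genes 5 were lower in TAU/LysM, namely Tmem119, Sall1, P2ry13, Selplg and Crybb1, against 0.783% of all tested probes. Tmem119 differed by -0.68. Lrrc57 was below background on both TAU/LysM arrays and at least 10.03-fold lower than in old LysM-Cre (adjusted p = 0.0462). Spint1 was also below background on both TAU/LysM arrays and did not pass the test (adjusted p = 0.0612).

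Oligodendrocyte and choroid plexus genes had small or negative median differences in TAU/LysM. The median difference was 0.09 for oligodendrocyte genes and -0.39 for choroid plexus genes. Cspg4, a proteoglycan of precursors and pericytes, was the one call of either list there, against 2.26% of all tested probes. The summed oligodendrocyte level was 13.29 and 13.40 in TAU/LysM, and 13.26 to 13.58 in old LysM-Cre. The part of this level in the differences of microglial genes was not tested. With the mean oligodendrocyte level as a covariate, 0 probes were called in TAU against old SIRT1F/F (969 at an unadjusted p under 0.05) and 278 in TAU/LysM against old LysM-Cre. The TAU arrays alone were high in that level, so the covariate and the TAU group can hardly be told apart.

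A test of the difference between both TAU effects called 33 probes (0.202%), 31 with a larger value in TAU (0.19%) and 2 with a smaller one (0.0122%). They include 8 genes of the oligodendrocyte list, of which Car2 is also in the red cell list, and 1 of the choroid plexus list. No gene of the disease-associated list was among them and none of the homeostatic list. For Mbp the TAU effect exceeded the TAU/LysM effect by 4.10 ± 0.46 (adjusted p = 0.00174). Among the 33 were also Plekhb1, Prr18, Tubb4a, Hapln2, Scg5, Ncam1, Fez1 and Snrpn. The disease-associated list had a median difference between the effects of -0.21 and the homeostatic list of 0.11. That no gene of these lists passed does not show that the effects were alike.

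**Figure D5:**
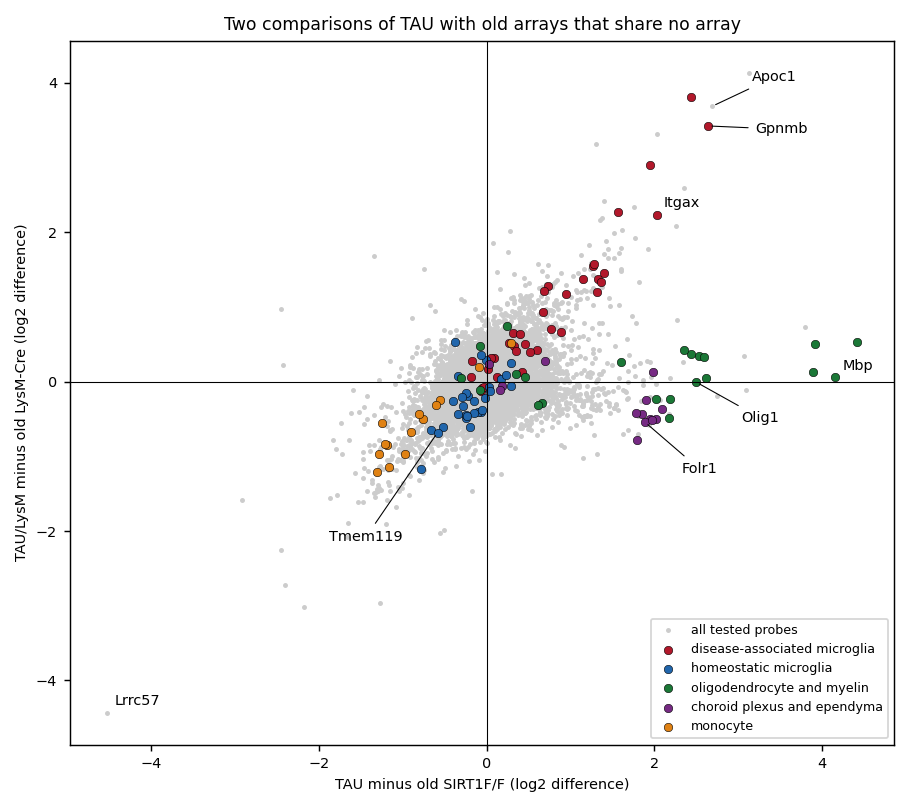
Log2 difference of TAU minus old SIRT1F/F (horizontal axis) and of TAU/LysM minus old LysM-Cre (vertical axis) for each tested probe, with probes of 5 lists in colour. Disease-associated probes such as Gpnmb (2.65 and 3.42) lie near the diagonal, and oligodendrocyte probes such as Mbp (4.16 and 0.06) lie along the horizontal axis.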

How the data were processed

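RNA of CD11b-selected brain cells was hybridised to 16 Illumina arrays. The deposited intensity table holds the authors' non-normalized probe intensities. The deposited log2 table equals the quantile-normalized log2 of these intensities to within 5e-09 (column median 7.894), with no background correction. No source used here names the scanner software. Intensities were corrected with normexp (offset 16), put on a log2 scale and quantile normalized in limma 3.58.1 (R 4.3.3). A probe counted as above background over the mode of log2 intensity plus 1.645 SD of the values below it, and 16343 probes above background on at least 2 of 16 arrays were tested. Of 25697 probes, 23978 carry 1 gene symbol, 0 several and 1719 none. A single limma model held all 6 groups (10 residual degrees of freedom), with Benjamini-Hochberg adjustment over all tested probes and a threshold of 0.05. Array number limits the precision. All adjusted p-values are from limma.

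Named genes are the 12 largest called differences in each direction (1 probe per gene, groups not overlapping) and the called members of each list. Lists were filled up to 3 with members of smallest p, not all of which are printed. A fixed set of microglial and sex-linked genes was added. The 5 genes of smallest p in each direction of the difference between both TAU effects were also picked. Of these, Ago3 and Igf2bp3 are not described. Other uncalled list members were named after their values were seen, and Lrrc57, Spint1 and Ehd4 were looked at further for the same reason. Tubb4a, Hapln2, Scg5, Ncam1, Fez1 and Snrpn lie outside these rules and were also named after their values were seen. The comparison, the 34 gene lists and the tests were chosen with earlier results of these data known. Alternatives covered background correction, scaling, filtering, the variance model, array subsets, a replicate block, a marker covariate and leaving out each array.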

Additional observations from a re-analysis of the deposited data

Results flagged for a closer look

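The TAU effect is TAU minus old SIRT1F/F, and the TAU/LysM effect is TAU/LysM minus old LysM-Cre. Their difference passed the test on 33 probes, which stand for 28 genes (limma, adjusted over all tested probes). The 12 genes named here are those of the 28 that the naming rules above had picked. Those rules take in every oligodendrocyte gene called in TAU, so the make-up of the 12 does not describe the 28. Of the 28, 8 are in the oligodendrocyte list and 1 in the choroid plexus list. The named probes of Fa2h, Mobp, Mog and Ugt8a were above background on no old SIRT1F/F, TAU/LysM or old LysM-Cre array, and that of Omg on 1 old SIRT1F/F and 1 old LysM-Cre array, so their values are fitted differences that rest partly on background-level signal, and neither measured sizes nor bounds. The TAU effect exceeded the TAU/LysM effect by 4.095 ± 0.462 (SE) for Mbp, 2.937 ± 0.334 for Prr18, 2.51 ± 0.29 for Olig1, 2.26 ± 0.257 for Mobp and 2.188 ± 0.241 for Fa2h, each with an adjusted p of 0.00174. For Car2, a carbonic anhydrase of oligodendrocytes and red cells, it did so by 2.432 ± 0.239 (adjusted p = 0.00151).

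The same direction held for Mog (2.256 ± 0.319, adjusted p = 0.0121), Omg (2.66 ± 0.392, adjusted p = 0.0126), Plekhb1 (3.208 ± 0.532, adjusted p = 0.0271) and Ugt8a (1.932 ± 0.34, adjusted p = 0.0361). Folr1, the folate receptor of the choroid plexus, differed by 2.435 ± 0.442 (adjusted p = 0.0424). Tln1, which encodes talin and links integrins to actin, was the named gene with a negative value, -0.8879 ± 0.159 (adjusted p = 0.0408), from -0.61 in TAU and 0.28 in TAU/LysM. The summed oligodendrocyte level was 15.49 and 15.87 in TAU and 13.24 to 13.66 in old SIRT1F/F. It sums the list's own probes, among them those of 8 genes named here, so it is no separate measure of these 8. Its part in the values of the named genes outside the list was not tested.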

How the results depend on the processing

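For TAU against old SIRT1F/F, 652 probes were called, and 393 with no filter, 1513 with array weights, 29 without the arrays low in Xist or Eif2s3y and 0 with the oligodendrocyte level as a covariate. Leaving out 1 array gave 147 to 418. For TAU/LysM against old LysM-Cre, 370 were called, and 198 with no filter, 138 in a fit on the compared arrays alone, 71 without the arrays low in Xist or Eif2s3y and 63 to 257 without 1 array. For the difference between both effects, 33 were called, and 80 with an offset of 50, 87 with no background correction or in the deposited log2 table, 21 with no filter, 95 with array weights, 51 in the fit on the compared arrays, 2 without the arrays low in Xist or Eif2s3y and 0 with the covariate (1027 at an unadjusted p under 0.05). It was 6 to 41 without 1 array. With a replicate block, 708, 365 and 133 probes were called. Deviations of same-numbered arrays of different groups correlated at -0.18 to 0.51 (TAU and old SIRT1F/F at 0.04 and -0.01), and of arrays of other numbers at -0.49 to 0.28, so the numbers were not taken to pair the arrays.

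With the covariate, 17 of the 76 named genes that were called changed sign: Bcas1 (-3.08), Rgs5 (-1.07), Axl (-0.57), Scd1 (-0.48), Fabp5 (-0.48), Plekhb1 (-0.42), Apoe (-0.35), Vtn (-0.33), Cst7 (-0.18), Kl (-0.12), Omg (-0.020), Gp9 (0.058), Ppbp (0.10), Padi4 (0.38), Serpinb2 (0.66), Spint1 (1.49) and Lrrc57 (2.94). That covariate nearly separates the TAU arrays from the rest. Under no other alternative did any of these 76 change sign. Of the 76 genes, 24 stayed called without any 1 of the 5 arrays, and 49, 38, 20, 33 and 19 lost the call without TAU replicate 1 or 2 and old SIRT1F/F replicate 1, 2 or 3. Causes were not tested. Several myelin probes were not above background in old SIRT1F/F, where the signal allows only bounds.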

Other observations

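Several genes outside the shared calls passed the test in TAU/LysM and not in TAU. Of 12 border-associated macrophage genes, Clec4n, Folr2 and Ms4a7 were higher in TAU/LysM than in old LysM-Cre, against 1.48% of all tested probes. The list medians were 0.31 in TAU and 0.69 in TAU/LysM. Of 19 interferon-stimulated genes Ifit2 alone was called in TAU/LysM, where it was higher, against the same 1.48%. The list medians were 0.16 in TAU and 0.58 in TAU/LysM. No gene of these lists passed the test of the difference between both effects.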
